A study of Mus musculus with 6 samples.

Results

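Dusp1, Zfp36 and Socs3 are genes whose products restrain inflammatory signalling, and the chromatin around them was described in mouse macrophages before and after lipopolysaccharide (LPS, an outer-membrane glycolipid of Gram-negative bacteria). The members were taken by position on mouse build mm9: chr17:26600000-26680000 around Dusp1 (given position 26642600), chr7:29145000-29180000 around Zfp36 (29162000) and chr11:117810000-117860000 around Socs3 (117827500). All deposited peaks that touch these windows were used. Peaks of both conditions that overlapped were joined into sites, which gave 24 of the 19879 p300 sites of the series, 32 of its 87955 PU.1 sites and 47 of its 84743 H3K4me1 peaks. In all, 103 of 192577 regions belonged to the 3 windows. One of the H3K4me1 peaks runs past the upper edge of the Socs3 window.

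Chromatin immunoprecipitation with sequencing was performed on macrophages differentiated for 7 days from the marrow of female Fvb mice in L929-conditioned medium. Cells were untreated or given LPS at 10 ng/ml for 2 h. p300 was measured in 2 biological replicates per condition, PU.1 in 1 library per condition, and H3K4me1 and input DNA in 1 library each of untreated cells. The 8 libraries held 5744811 to 7828655 aligned reads, and the p300 libraries differed in enrichment: scaled on all p300 sites, untreated replicate 1 counted as a library 30.6% the size of untreated replicate 2.

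Dusp1 encodes a phosphatase that switches off MAP kinases, the kinases that relay the signal of the LPS receptor. Zfp36 encodes tristetraprolin, which binds AU-rich elements of inflammatory mRNAs such as that of Tnf and hastens their decay. Socs3 encodes a suppressor of cytokine signalling that binds cytokine receptors and their JAK kinases and limits STAT signalling. All 3 are known as genes that macrophages induce early after LPS. p300 is a histone acetyltransferase found at active enhancers and promoters, PU.1 is the ETS-family factor that opens macrophage enhancers, and H3K4me1 marks enhancers and the borders of promoters. RNA was not measured here.

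The promoters of the 3 genes are shown with their matches to motif patterns, some of them of LPS- and cytokine-responsive factors. RefSeq lists all 3 genes on the minus strand, so in each window higher coordinates lie on the upstream side of the gene. Distances below are in kb from the given position, with a plus sign toward higher coordinates. Whether the given position is the start or the 3' end of its gene was not determined on mm9. The genes span 2.9 kb (Dusp1), 2.4 kb (Zfp36) and 4.3 kb (Socs3) on GRCm38.p6, so sites within a few kb of the given position, such as those at +3.2, +2.2 and +3.0 kb, may lie at a start site, within the gene or upstream of it. On the RefSeq table's build, GRCm38.p6, the 250 bases upstream of the start site are chr17:26508473-26508722 for Dusp1, chr7:28379229-28379478 for Zfp36 and chr11:117969367-117969616 for Socs3, all minus strand. These coordinates belong to another build than mm9 and were not set against the peaks. Capitals mark matches, on either strand, to the motifs named after the sequences.
Dusp1: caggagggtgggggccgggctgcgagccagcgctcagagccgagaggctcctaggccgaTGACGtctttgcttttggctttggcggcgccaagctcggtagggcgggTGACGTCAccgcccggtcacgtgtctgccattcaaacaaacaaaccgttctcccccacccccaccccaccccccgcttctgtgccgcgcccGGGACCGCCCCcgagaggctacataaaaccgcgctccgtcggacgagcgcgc
Zfp36: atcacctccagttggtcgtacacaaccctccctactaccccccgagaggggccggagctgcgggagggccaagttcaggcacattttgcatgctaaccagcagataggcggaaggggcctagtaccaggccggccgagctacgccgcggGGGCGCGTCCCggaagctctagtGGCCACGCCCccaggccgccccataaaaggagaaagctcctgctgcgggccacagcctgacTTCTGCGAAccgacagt
Socs3: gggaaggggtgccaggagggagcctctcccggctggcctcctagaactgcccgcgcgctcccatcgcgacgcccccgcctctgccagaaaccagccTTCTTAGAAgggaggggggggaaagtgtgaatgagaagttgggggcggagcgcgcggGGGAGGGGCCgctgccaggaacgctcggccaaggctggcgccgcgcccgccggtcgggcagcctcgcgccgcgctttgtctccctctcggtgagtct
The Dusp1 promoter held 1 match to the full cyclic AMP response element TGACGTCA, from -143 to -136 relative to the start site, and 3 matches to its shorter core TGACG, of which 2 lie within the full element. The full element was found in 1.56% of 32536 upstream sequences of the same length, and the core in 17.9%. A STAT-type motif TTCNNNGAA was found once in Socs3, as TTCTTAGAA from -154 to -146, and once in Zfp36, as TTCTGCGAA from -17 to -9. That motif occurred in 7.04% of all upstream sequences. The loose NF-kB pattern, GGG followed after 5 free bases by CC, had 3 overlapping matches in Dusp1, 3 in Zfp36 (2 of them overlapping) and 1 in Socs3, and 46.0% of all upstream sequences held it. No match was found for the ETS core GAGGAA, AP-1 TGANTCA or the TATA box TATAAA, nor for the SRF and ISRE patterns searched. Those patterns occurred in 23.4%, 6.73%, 12.3%, 0.0615% and 2.98% of all upstream sequences. GC content was 68.4% in Dusp1, 64.8% in Zfp36 and 71.6% in Socs3, against a median of 52.4%. The sequences held 28, 18 and 26 CpG dinucleotides, against a median of 6. The motif shares of all upstream sequences were not matched for GC content.

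The windows were dense in all 3 readouts. p300 sites numbered 12.5 per 100 kb around Dusp1, 11.4 around Zfp36 and 20.0 around Socs3, and 0.748 over the genome. PU.1 sites numbered 17.5, 11.4 and 28.0 per 100 kb, against 3.33. H3K4me1 peaks of untreated cells covered 33.9% of the Dusp1 window, 22.5% of the Zfp36 window and 67.7% of the Socs3 window, against 2.76% of the genome. The windows were drawn around genes with peaks, so these densities are descriptive. In the RefSeq order the nearest protein-coding genes are Neurl1b and Ergic1 beside Dusp1, Plekhg2 and Med29 beside Zfp36, and Tha1 and Pgs1 beside Socs3. Which of these genes a site belongs to was not determined.

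**Figure D1:**
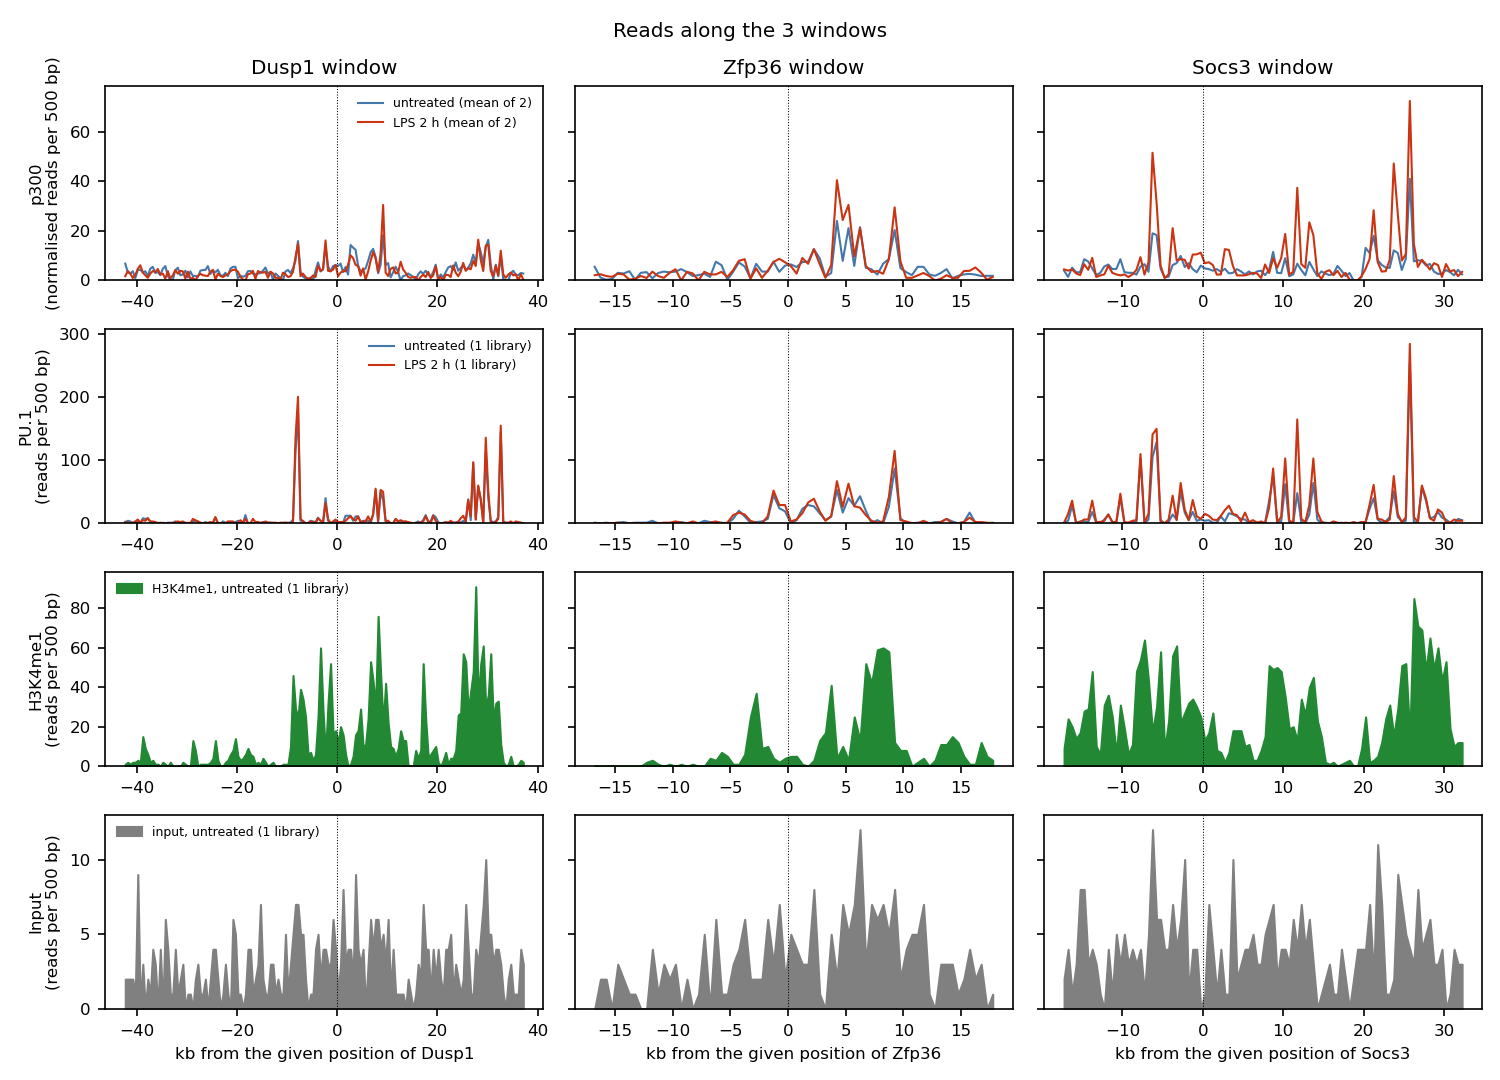
Reads in bins of 500 bp along the 3 windows, plotted against distance in kb from the given position of each gene (dotted line). Rows show p300 (mean of 2 libraries per condition, normalised reads), PU.1, H3K4me1 and input (reads of 1 library each). The red LPS line lies above the blue untreated line over several p300 peaks of Socs3, while the lines run close together around Dusp1.

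The first question was whether p300 at these genes differed after 2 h of LPS. Counts by library showed little difference at most Dusp1 sites, somewhat higher values upstream of Zfp36, and higher values after LPS at 6 of 10 Socs3 sites. No site passed the test: 0 of 24 sites were called by limma voom (Benjamini-Hochberg adjusted p under 0.05 over all 19727 sites tested), where 1.97% of all sites were called higher and 0.213% lower. At an unadjusted p under 0.05 there were 6 sites, all higher (11.5% of all sites were higher and 6.10% lower at that level). Of the 6, 5 lay in the Socs3 window and 1 in the Dusp1 window. limma-trend called 1 of the 24, and 1.69% of all sites higher. Both LPS libraries lay above both untreated libraries at 7 of 24 sites, against 26.9% of all sites, and below them at 1, against 27.7%. Over all 3 windows the first share is near the background. By gene it was 6 of 10 for Socs3, 1 of 10 for Dusp1 and 0 of 4 for Zfp36. These 7 sites are those with a peak in the LPS list alone, which was called on the same p300 reads. The share among all sites of that kind was not computed. A peak stood in both lists at 14 of 24 sites, against 23.2% of all p300 sites. The median number of p300 reads was 126.5 in the windows and 33.0 over all tested sites, so the 23.2% is not a share of like sites. The deposited p300 lists shared 17 of 20 untreated peaks (85.0%) and 14 of 21 LPS peaks (66.7%). Replicates were described as biological, but p and SE come from a variance common to all sites, not from a site's own replicates.

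**Figure D2:**
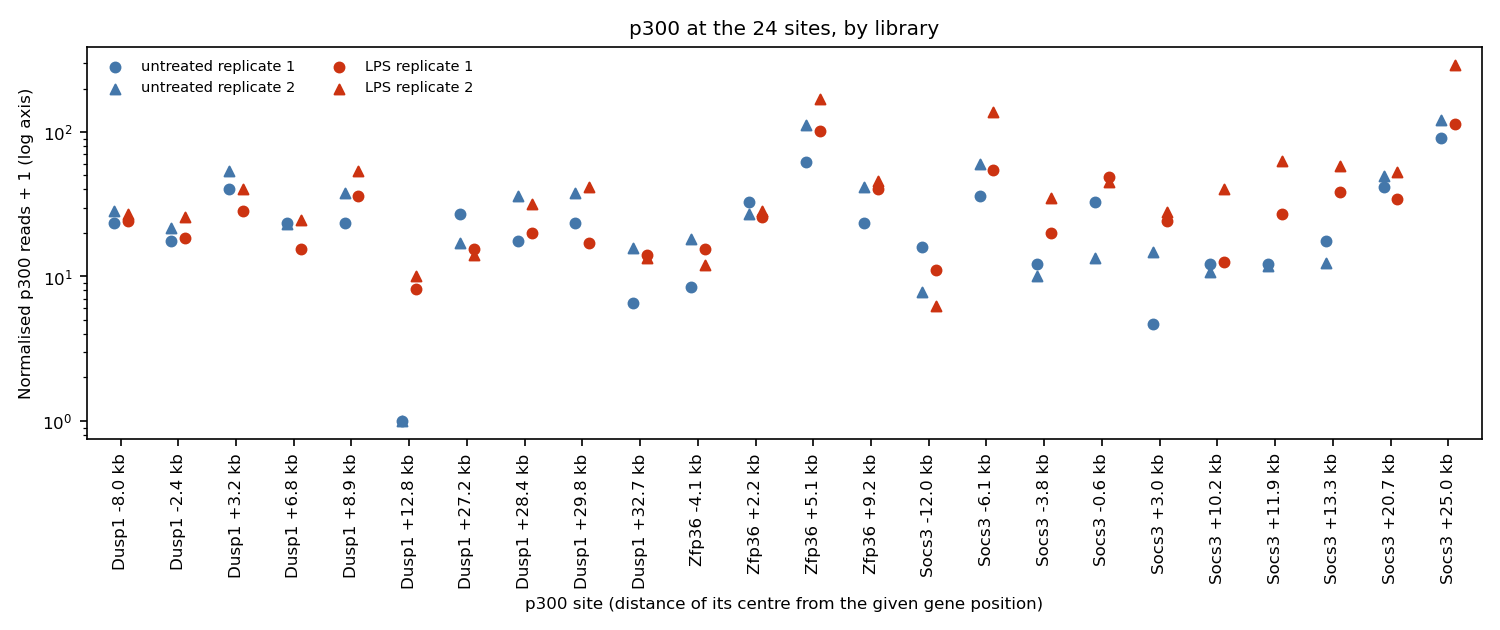
Normalised p300 reads plus 1 (log axis) in each of the 4 p300 libraries at the 24 sites, named by gene and distance of the site centre from the given position. Circles are replicate 1, triangles replicate 2, blue untreated and red LPS. Red symbols lie above both blue ones at 6 of 10 Socs3 sites.

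Dusp1, the MAP kinase phosphatase gene, had 10 p300 sites, of which 8 had a peak in both lists. Their median log2 fold change was -0.02, against 0.00 over all sites. The largest, at +3.2 kb (chr17:26644801-26646764), held 39.0 and 52.9 normalised p300 reads in untreated replicates 1 and 2 and 27.5 and 39.1 after LPS. Each LPS replicate was lower than the untreated replicate of its number, but LPS replicate 2 reached just above untreated replicate 1, so the conditions overlapped. The log2 fold change was -0.45 ± 0.52 (SE; limma adjusted p = 0.551). The site at +8.9 kb (chr17:26650855-26652154) held 22.3 and 37.0 untreated and 34.8 and 52.8 LPS reads, with the LPS value higher within each replicate number and overlap across them. Its log2 fold change was 0.55 ± 0.52 (limma adjusted p = 0.476).

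The other Dusp1 sites with many reads were nearly level. At -8.0 kb (chr17:26634063-26635087) p300 was 22.3 and 27.3 before and 23.2 and 26.1 after LPS, the LPS pair lying between the untreated values. At +6.8 kb (chr17:26649015-26649799) it was 22.3 and 22.2 before and 14.5 and 23.5 after, with the LPS replicates on either side of the untreated pair. Farther upstream p300 was 16.7 and 35.3 before and 18.8 and 30.7 after at +28.4 kb (chr17:26670493-26671473), and 22.3 and 37.0 before and 15.9 and 40.4 after at +29.8 kb (chr17:26671980-26672913). At both of these replicate 2 was above replicate 1 in both conditions. The log2 fold changes of these 4 sites were -0.01, -0.25, -0.03 and -0.18, each with a limma adjusted p of at least 0.738. The weaker sites at -2.4 and +32.7 kb had log2 fold changes of 0.14 and 0.09. At +27.2 kb a peak of the untreated list alone had 26.0 and 15.9 reads before and 14.5 and 13.0 after LPS, the single site of the 24 with both LPS values below both untreated ones (log2 fold change -0.54 ± 0.53, limma adjusted p = 0.490).

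One weak site stood out around Dusp1 and is named here after its values were seen. At +12.8 kb (chr17:26655098-26655602) there were 0 reads in both untreated libraries and 19 in the LPS libraries, or 7.25 and 9.13 normalised reads. Against an assumed 3 reads over both untreated libraries, a value set here in place of 0, p300 was 6.54-fold higher. This leaves out counting error in the LPS reads, so it is not a strict lower bound. The limma adjusted p was 0.0720. Its authors' score was 51.9, in the lowest 6.44% of the LPS list, and PU.1 had no peak there (3 untreated and 7 LPS reads). H3K4me1 already covered it in untreated cells, with 21 reads against 1 of input. With this site at that assumed value the Dusp1 median stayed at -0.02.

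Zfp36, the tristetraprolin gene, had 4 p300 sites, 3 of them in both lists. The strongest, at +5.1 kb (chr7:29165456-29168751), held 61.4 and 111 normalised p300 reads before and 100.0 and 170 after LPS. The LPS value was higher in each replicate number, but LPS replicate 1 was below untreated replicate 2. The log2 fold change was 0.68 ± 0.60 (limma adjusted p = 0.455). Within replicate 1 the ratio of LPS to untreated was 1.63 (exact 95% interval 1.06 to 2.55) and within replicate 2 it was 1.53 (1.26 to 1.85). These intervals cover counting error only. The replicate numbers come from file names and are not known to pair the samples, so ratios by number, here and below, are descriptive. The site's rank by the authors' score was at percentile 90.7 of the untreated and 99.3 of the LPS list, which are lists of different lengths.

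This wide site joined a pair of untreated peaks. The one at +4.3 kb (chr7:29165896-29166676) held 20.5 and 35.9 reads before and 40.6 and 71.7 after LPS, both LPS values above both untreated ones. Its ratio was 1.98 (0.957 to 4.42) in replicate 1 and 2.00 (1.45 to 2.77) in replicate 2. The one at +5.7 kb (chr7:29166819-29168601) held 33.5 and 70.6 before and 49.3 and 83.5 after, with overlap, and ratios of 1.47 (0.808 to 2.77) and 1.18 (0.917 to 1.53). Counting them apart was chosen after seeing the data.

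The Zfp36 site at +9.2 kb (chr7:29170689-29171808) held 22.3 and 40.4 reads before and 39.1 and 45.0 after LPS, which overlap (log2 fold change 0.49 ± 0.52, limma adjusted p = 0.523). Nearest the given position, at +2.2 kb (chr7:29163591-29164879), p300 was 31.6 and 26.2 before and 24.6 and 27.4 after. LPS replicate 1 lay below both untreated values and LPS replicate 2 between them. At -4.1 kb (chr7:29157470-29158286), a peak of the untreated list alone, the values were 7.44 and 17.1 before and 14.5 and 11.1 after. The log2 fold changes of these sites were -0.16 and -0.12 (limma adjusted p = 0.835 and 0.885). Over all Zfp36 sites p300 was 1.45 times (1.07 to 1.99) the untreated level in replicate 1 and 1.30 times (1.12 to 1.51) in replicate 2. Over every bin of the Zfp36 window the scaled reads were 374 before and 367 after LPS in replicate 1 and 319 and 383 in replicate 2. These bin totals depend on the scale, which was set on p300 sites.

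Socs3, the cytokine signalling suppressor gene, had 10 p300 sites, and 6 of them had a peak in the LPS list alone, against 38.1% of all p300 sites. Among the 7507 tested sites of that kind 4.88% were called, and none of these 6 was. The list was called on the same p300 reads, so higher LPS values at these 6 sites were favoured by how they were picked. Their centres ran from -3.8 to +13.3 kb, across the given position. The median log2 fold change of all 10 sites was 1.12, with 8 above 0, where 50.0% of all sites were above 0. Summed over these 10 sites p300 was 1.41 times the untreated level in replicate 1 (1.15 to 1.74) and 2.47 times in replicate 2 (2.23 to 2.74). Over every bin of the window, in and between sites, the scaled p300 reads of replicate 1 were 636 before and 648 after LPS, and those of replicate 2 were 461 and 972. For the 10 Dusp1 sites the summed ratios were 0.967 (0.741 to 1.26) and 1.03 (0.904 to 1.18). Over every bin of the Dusp1 window the scaled reads were 872 before and 645 after LPS in replicate 1, and 522 and 553 in replicate 2. The size of the Socs3 difference thus differed between replicate numbers, which are not known to pair the samples. On this scale the replicate 1 total of the Socs3 window was nearly level. The scale was set on p300 sites. A read of untreated replicate 1 counted for more on it than a read of the other p300 libraries. The totals over every bin depend on that weight, and such totals per sequenced read were not computed. The median over the 10 sites was 0.82 without LPS replicate 2, 0.82 without untreated replicate 2, 0.99 without untreated replicate 1 and 1.73 without LPS replicate 1.

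The clearest separation was upstream. At +11.9 kb (chr11:117838971-117839930) p300 was 11.2 and 10.8 normalised reads before LPS and 26.1 and 62.0 after, both LPS values far above both untreated ones and LPS replicate 2 the highest. The log2 fold change of the +11.9 kb site was 1.78 ± 0.56 (limma adjusted p = 0.0579). At +13.3 kb (chr11:117840042-117841549) it was 16.7 and 11.4 before and 37.7 and 56.7 after (log2 fold change 1.76 ± 0.55, limma adjusted p = 0.0566). These 2 sites stood just outside the threshold, and some other settings moved 1 or both across it while others moved both far from it. Scaled to total reads or to bins outside peaks, the lowest limma adjusted p of any Socs3 site was 0.617 and 0.706. Without untreated replicate 1 the log2 fold changes of these 2 sites were 1.77 and 1.91. With all reads kept, and by limma-trend, the +11.9 kb site alone was called, at 0.0447 and 0.0316.

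Around the given position p300 was broad, with a lower maximum. Within 150 bp of its highest point the -0.6 kb site held 28 unscaled reads over the 4 p300 libraries. The +11.9 and +13.3 kb sites held 109 and 79. The site at -0.6 kb (chr11:117825738-117828138) held 31.6 and 12.5 reads before and 47.8 and 44.3 after LPS. Both LPS values were above both untreated ones, which themselves differed between replicates (log2 fold change 1.25 ± 0.53, limma adjusted p = 0.211). Without untreated replicate 1 its log2 fold change was 1.79. The remaining sites of the LPS list alone, at -3.8, +3.0 and +10.2 kb, also had both LPS values above both untreated ones, and log2 fold changes of 1.35, 1.18 and 1.07 (limma adjusted p = 0.194, 0.271 and 0.289). At the last of them LPS replicate 1 was barely above the untreated libraries: 11.6 reads, against 11.2 and 9.68, with 39.1 in LPS replicate 2.

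The strongest Socs3 site, at +25.0 kb (chr11:117850216-117854694), held 89.2 and 121 normalised reads before and 113 and 291 after LPS. LPS replicate 2 was far above the others and LPS replicate 1 lay between the untreated values (log2 fold change 0.74 ± 0.64, limma adjusted p = 0.441). In the LPS list its authors' score of 2224 was at percentile 99.9. It joined a pair of untreated peaks that differed in size of change. The peak at +23.9 kb (chr11:117850984-117851814) went from 14.9 and 24.5 to 27.5 and 111, with ratios of 1.85 (0.774 to 4.89) and 4.53 (3.23 to 6.49) in replicates 1 and 2. The peak at +25.9 kb (chr11:117852524-117854258) went from 37.2 and 84.2 to 63.8 and 139, with ratios of 1.71 (0.990 to 3.07) and 1.65 (1.33 to 2.05).

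On the other side, at -6.1 kb (chr11:117820393-117822342), p300 was 35.3 and 59.2 before and 53.6 and 136 after LPS (log2 fold change 0.85 ± 0.56, limma adjusted p = 0.353). LPS replicate 1 lay within the untreated range there. The site at +20.7 kb (chr11:117847450-117849027) was level, at 40.9 and 48.4 before and 33.3 and 51.5 after, with a log2 fold change of -0.12. It joined a pair of untreated peaks, at +20.4 kb with 26.0 and 17.6 before and 5.80 and 18.3 after, and at +21.2 kb with 13.0 and 30.2 before and 27.5 and 33.3 after. The weak site at -12.0 kb, from the untreated list alone, had -0.39. Those were the 2 Socs3 sites without a higher fitted value after LPS.

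The second question was whether PU.1 differed at the same places. PU.1 was measured in 1 library per condition, so ratios of LPS to untreated carry exact counting intervals and no test between conditions. Of 32 PU.1 sites 24 had a peak in both lists, against 66.7% of all PU.1 sites, 6 in the untreated list alone and 2 in the LPS list alone. One, among the 26 sites with at least 40 reads, had an interval wholly beyond 2-fold, where 0.833% of all 87955 sites were beyond 2-fold higher and 0.115% lower. Of the 42940 sites with at least 40 reads these shares were 0.612% and 0.0442%. That site, at +11.8 kb of Socs3 (chr11:117838954-117839665), had 50 untreated and 170 LPS reads, a ratio of 3.50 (2.54 to 4.89). It overlaps the +11.9 kb p300 site described above. PU.1 was already called there before LPS, with an authors' score of 119.

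Across the Socs3 window all 14 PU.1 sites had a ratio above 1, against 51.9% of all sites, and 7 had an interval above 1, against 8.72%. These 14 sites held at least 58 reads each, whereas 42940 of all 87955 sites held at least 40. Intervals clear 1 more readily with more reads, so the 8.72% is not a share of like sites. At sites that overlapped p300 peaks of the LPS list alone PU.1 was 65 and 112 reads at +10.0 kb (ratio 1.77, 1.29 to 2.44) and 84 and 148 at +13.8 kb (1.81, 1.38 to 2.40). At +3.5 kb, where PU.1 had a peak in the LPS list alone, it was 41 and 75 (1.88, 1.27 to 2.82). The sites with the most PU.1 had smaller ratios. The largest pair, at +25.7 kb (chr11:117852743-117853658) and -6.1 kb (chr11:117820778-117821925), had 260 and 296 reads (1.17, 0.988 to 1.39) and 238 and 298 reads (1.29, 1.08 to 1.53). At +8.5 kb (chr11:117835411-117836557) PU.1 was level, with 113 and 112 reads. Summed over the sites of the window, PU.1 was 1.40 times the untreated level (1.31 to 1.51).

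PU.1 around Dusp1 and Zfp36 had smaller summed ratios. Over the Dusp1 sites the summed ratio was 1.11 (1.02 to 1.20). Its strongest site, at -8.0 kb (chr17:26633995-26635119), had 293 and 338 reads (1.19, 1.01 to 1.39). The next by reads of both libraries were +29.9 kb with 152 and 188 (1.27, 1.02 to 1.59) and +32.4 kb with 154 and 161 (1.08, 0.857 to 1.35). They were followed, at the same sum, by +8.9 kb with 89 and 109 (1.26, 0.943 to 1.69) and +27.2 kb with 99 and 99 (1.03, 0.771 to 1.37). Over the Zfp36 sites the ratio was 1.29 (1.09 to 1.53). The +9.1 kb site (chr7:29170575-29171673) had 115 and 159 reads (1.42, 1.11 to 1.82), and the -1.0 kb site (chr7:29160204-29161812), which had no p300 peak, had 93 and 119 (1.32, 0.995 to 1.75). The 2 weak Zfp36 sites, at -4.1 and +15.8 kb, had 26 and 26 and 16 and 9 reads.

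PU.1 was then read at the p300 sites themselves. Before LPS, 16 of the 24 were overlapped by a PU.1 peak, against 48.5% of all p300 sites. At the 6 Socs3 sites with p300 in the LPS list alone the PU.1 ratio ran from 1.76 to 3.54, and all 6 intervals lay above 1, against 17.7% of the 7507 p300 sites in the LPS list alone. At the 3 Socs3 sites of both lists the interval also lay above 1, against 13.2% of all such sites. In untreated cells 3 of the 6 carried a PU.1 peak and all 6 an H3K4me1 peak. At -3.8 kb PU.1 went from 18 to 49 reads (2.80, 1.60 to 5.11) and at -0.6 kb from 36 to 79 (2.26, 1.50 to 3.45), and neither site had a PU.1 peak in either list. At the 10 Dusp1 sites the interval lay above 1 at 2, and at the 4 Zfp36 sites at 1, against 10.4% of all p300 sites. None of these background shares was matched for read number. Input came from untreated cells, so the LPS libraries had no control of their own condition.

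**Figure D3:**
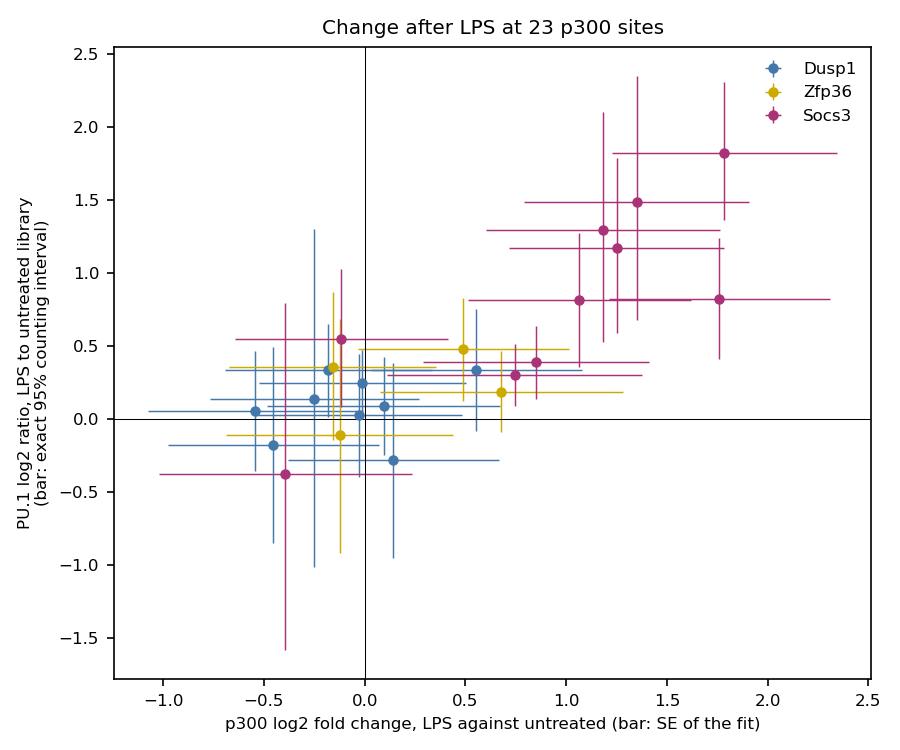
log2 fold change of p300 (x axis, bars are the SE of the fit) against the log2 ratio of PU.1 reads (y axis, bars are exact 95% counting intervals) at the 23 p300 sites with untreated p300 reads. The 6 Socs3 sites of the LPS list alone form the upper right group, while most Dusp1 and Zfp36 sites lie near the origin.

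The third readout, H3K4me1, was measured in untreated cells alone. Over the peaks of each window its log2 ratio to input was 3.11 for Dusp1 (1831 and 210 reads), 2.96 for Zfp36 (493 and 62) and 3.04 for Socs3 (2391 and 288), with counting intervals of 2.91 to 3.33, 2.60 to 3.39 and 2.87 to 3.22, which overlap. The peaks with the most reads lay well upstream: +26.0 kb for Dusp1 (chr17:26666398-26670830, 404 reads, 24 of input), +7.7 kb for Zfp36 (chr7:29168173-29171202, 289 and 35) and +28.2 kb for Socs3 (chr11:117853324-117858066, 551 and 39). Their scores were at percentiles 99.9, 99.3 and 99.9 of the H3K4me1 list, and each overlapped p300 and PU.1 peaks. The highest log2 ratios to input were 4.01 at that Dusp1 peak, 3.57 at +3.0 kb of Zfp36 (23 reads, 1 of input) and 4.16 at +30.8 kb of Socs3 (17 reads, 0 of input). With so little input the Zfp36 and Socs3 values depend on the 1 read added to each count. A p300 peak overlapped 12 of 20 H3K4me1 peaks of Dusp1, 3 of 7 of Zfp36 and 14 of 20 of Socs3, against 13.9% of all. The windows were drawn around genes with peaks, so the 13.9% is not a share of like peaks.

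p300 sat in local dips of H3K4me1 at many sites. An H3K4me1 peak overlapped 23 of the 24 p300 sites, against 48.0% of all p300 sites. H3K4me1 peaks covered far more of these windows than of the genome, so the 48.0% is not a share of like sites. The point of highest p300 density lay inside an H3K4me1 peak at 12 of the 24. H3K4me1 per kb was lower within 250 bp of that point than 500 to 1500 bp away at 17 of 24 sites, against 47.2% of all. The latter share includes the many p300 sites without an H3K4me1 peak, so the 2 shares are not alike. A share among H3K4me1-marked sites was not computed. All 4 Zfp36 sites showed this, 7 of 10 of Dusp1 and 6 of 10 of Socs3. At the strongest Socs3 site H3K4me1 was 31.9 reads per kb at the p300 maximum and 135 beside it, and at the +28.4 kb site of Dusp1 it was 9.98 and 120.5. At the +3.0 kb site of Socs3 there were 0 H3K4me1 reads within 250 bp, with 27.5 per kb beside it. The +3.2 kb site of Dusp1 and the +2.2 kb site of Zfp36 were also nearly bare, at 3.99 and 5.99 reads per kb. By contrast, the -3.8, -0.6 and +13.3 kb sites of Socs3 had more H3K4me1 at the p300 maximum than beside it. The values were 108 and 56.0, 57.9 and 49.5, and 51.9 and 48.5 reads per kb. At the -0.6 and +13.3 kb sites the central values rest on 29 and 26 reads. These sites had p300 in the LPS list alone, but the rest of the 6 such Socs3 sites had less at the maximum. The +6.8, +12.8 and +27.2 kb sites of Dusp1 and the Socs3 site of the untreated list alone also had more. Whether any of these differences exceeds counting error was not tested.

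**Figure D4:**
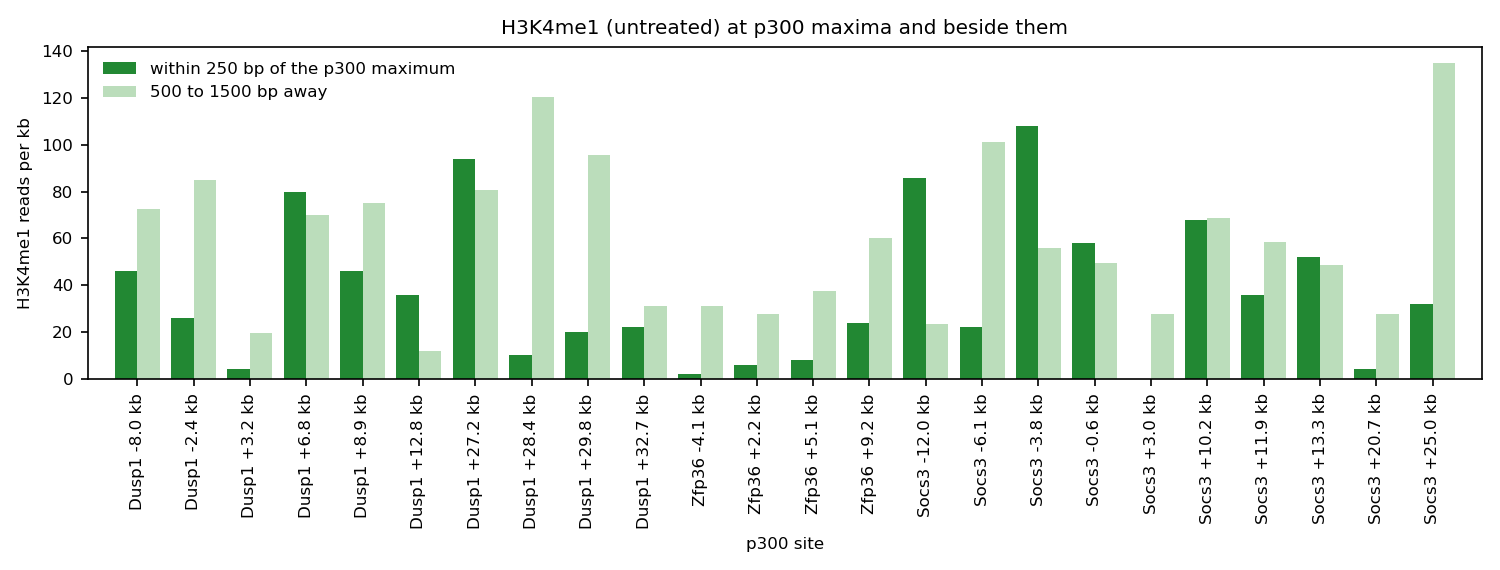
H3K4me1 reads per kb in untreated cells within 250 bp of the point of highest p300 density (dark bars) and 500 to 1500 bp from it (light bars) at the 24 p300 sites, 1 library. The dark bar is the shorter at 17 of 24 sites, with 0 reads at the +3.0 kb site of Socs3.

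p300 and PU.1 peaked close together. Of the 22 sites with at least 40 p300 reads, 19 had their p300 and PU.1 maxima within 200 bp, against 87.2% of all such sites, with a median distance of 80 bp. The share is near the background. At the 3 exceptions, +3.2 kb of Dusp1 (1050 bp apart), +8.9 kb of Dusp1 (470 bp) and -0.6 kb of Socs3 (930 bp), the sites were 1964, 1300 and 2401 bp wide. Reads of all 4 p300 libraries together were 1.86 to 7.30 times those of input per sequenced read, with a median of 3.40, and no site of the 24 was below input. The sites were called as peaks on these same p300 reads, so values above input were favoured by how they were picked. The highest ratio, at +32.7 kb of Dusp1, rests on 2 input reads.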

How the data were processed

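Reads from 8 libraries in 6 samples were analysed. Per the deposited column description, each line of a read file is 1 aligned read, 36 bp long by its coordinates. The submitters' processing notes name build mm9. The aligner is not given in the sources used here. The authors' peak scores are 10 times the -log10 p-value of MACS, per the deposited column description. p300 peaks were called on 2 merged replicates, so these lists are pooled. Per the file headers the controls were libraries named naked (p300), random (PU.1) and input (H3K4me1). The untreated PU.1 list carries LPS in its header line, but its 14146 peaks absent from the LPS list held 205549 untreated and 112968 LPS reads, so it was used under its sample's label.

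Duplicates at 1 position and strand were counted once, each 5' end was shifted by 100 bp in the read's direction, and only autosomes and chromosome X entered. This left 5503587 to 6428281 reads per library. Sites were unions of peaks sharing at least 1 bp. The p300 test was limma voom (limma 3.58.1, R 4.3.3) on 19727 sites with at least 10 reads, median-of-ratios scaling, treatment as the single term. Its residual variance was shared by all sites. It was tested on simulated data. Normalised reads are counts at the geometric mean of the scaled library sizes. PU.1 ratios were divided by the median ratio, 0.972, of sites with at least 40 reads. H3K4me1 ratios were scaled to distinct reads with 1 read added to each.

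Named p300 sites were up to 6 per window with the most reads (at least 20); named PU.1 sites were the 4 with the most reads and those beyond 2-fold; named H3K4me1 peaks had the most reads or the highest ratio in their window. The other sites were added for completeness. Members, motifs and rules were chosen with earlier results of these data known. No mm9 annotation was used, so related feedback genes, cell type markers and gene starts were not located. Alternatives were other scalings, all reads kept, a 50 bp shift, no filter, limma-trend, a replicate block, leaving out each library, a score of at least 100 and 50% overlap.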

Additional observations from a re-analysis of the deposited data

How the results depend on the processing

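No p300 site in the 3 windows was called lower under any setting, and the number called higher, 0 with the settings of the report, was 1 with all reads kept (457 of all 19844 sites), 1 with no filter (357 of 19879), 1 with limma-trend (333 of 19727), and 0 to 4 when 1 library was left out. It was 4 without untreated replicate 1 (the +12.8 kb site of Dusp1 and the -0.6, +11.9 and +13.3 kb sites of Socs3), where 488 of all 17375 sites were called higher and 356 lower. With the replicate number as a block it was 6 (the +12.8 kb site of Dusp1 and the -3.8, -0.6, +10.2, +11.9 and +13.3 kb sites of Socs3), and 896 of all 19727 sites were called higher. The numbers come from file names, and deviations of replicate 1 from the condition means correlated at 0.210 between conditions, over 2 pairs, so they are not known to pair the samples. Scaling to total reads or to bins outside peaks called 0 sites (1494 and 1449 of all sites at an unadjusted p under 0.05). It set the median log2 fold change of all sites at 0.20 and 0.16, and that of Socs3 at 1.29 and 1.28.

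Signs turned at sites with small fitted log2 fold changes, none of them called. With total reads the values became 0.18, 0.15 and 0.0030 at the -8.0, +28.4 and +29.8 kb sites of Dusp1, 0.31 and 0.045 at the -4.1 and +2.2 kb sites of Zfp36, and 0.084 at the +20.7 kb site of Socs3. With background bins they were 0.15 and 0.12 (Dusp1 -8.0 and +28.4 kb), 0.26 and 0.025 (Zfp36 -4.1 and +2.2 kb) and 0.064 (Socs3 +20.7 kb). With all reads kept the first 2 Dusp1 sites were at 0.028 and 0.020. At the -4.1 kb site of Zfp36 a 50 bp shift gave 0.057 and limma-trend 0.13. Leaving out 1 library gave ranges with both signs at the -8.0, +6.8, +28.4 and +29.8 kb sites of Dusp1 (-0.21 to 0.20, -0.44 to 0.17, -0.58 to 0.50, -0.55 to 0.67), the -4.1 and +9.2 kb sites of Zfp36 (-0.54 to 0.46, -0.019 to 0.78) and the +20.7 kb site of Socs3 (-0.31 to 0.35). The 8 calls gained at named sites were all at the -0.6, +11.9 and +13.3 kb sites of Socs3.

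With total reads the ratio summed over a window's p300 sites became, in replicate 1, 1.45 for Dusp1, 2.18 for Zfp36 and 2.12 for Socs3, and that of Socs3 in replicate 2 became 2.20. Scaling to bins without H3K4me1 peaks gave log2 ratios to input of 4.81, 4.66 and 4.74 for Dusp1, Zfp36 and Socs3. With a score of at least 100, 100% of untreated p300 peaks (13 of 13) and 100% of LPS PU.1 peaks (13 of 13) were shared. The cause of these shifts was not tested. PU.1 counts beyond 2-fold were the same under all 4 alternatives. Depth limits the weaker sites: the 24 p300 sites held 19 to 784 reads in all, and a site that was not called is not thereby shown to be level.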
